A study of Mus musculus with 15 samples.

Results

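This account follows 40 ciliary genes, those of intraflagellar transport (IFT), the BBSome and the ciliary transition zone. The samples were mouse retinal pigment epithelium (RPE) cells and RPE/choroid tissue, labelled WT or Prom1-KO. The members were taken by gene symbol. All 40 were found both among the 20910 genes of the mRPE count table and among the 25038 genes of the RPE/choroid count table, and all 40 passed the count filter in every comparison. mRPE are immortalized RPE cells of C57/BL6J mice grown in culture. WT mRPE gave 4 libraries. The Prom1-KO lines KO22 and KO26, made with CRISPR/Cas9 and a guide against exon 5, gave 3 and 2 libraries, so each line is a single derivative and line and genotype cannot be told apart within it. Library names begin with 8995 for replicate 1 of each mRPE group and with 9262 for the other mRPE libraries. RPE/choroid tissue gave 3 WT libraries and 3 libraries labelled Prom1-KO, from Prom1 fl/fl mice crossed to RPE65-Cre mice and gavaged with tamoxifen, in which Cre acts in the RPE and not in the photoreceptors. The sources used here give no age for the tissue mice and do not say whether the WT mice carried the floxed allele or received tamoxifen.

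A primary cilium is a microtubule-based antenna that grows from a centriole docked at the cell surface. The IFT-B complex carries cargo from base to tip with the motor kinesin-2, and the IFT-A complex carries it back with dynein-2 and also brings membrane proteins in. The BBSome is a coat that moves membrane receptors through the cilium, and the transition zone is the gate at its base. RPE cells carry a primary cilium during their maturation, photoreceptor outer segments are modified cilia, and mutations in many of these genes cause retinal degeneration.

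Total counts were 8076188 to 27537863 per mRPE library and 48154444 to 61766179 per tissue library. The 40 members together held 7052 to 24112 counts per mRPE library and 8187 to 21399 per tissue library, and no single value was under 10 counts (lowest 21, Mks1 in KO22 replicate 1). Levels are CPM, the depth-normalized counts of edgeR on its TMM scale. Prom1 is not analysed here in mRPE. In tissue it stood at 48.7, 49.5 and 53.3 CPM in WT and at 49.9, 48.1 and 35.5 CPM in the libraries labelled Prom1-KO, a difference that did not pass the test (log2 fold change -0.18, edgeR adjusted p = 0.824). Of 12 RPE markers, 4 (Rdh5, Mitf, Best1 and Pmel) could be read in mRPE and summed to only 11.8 to 17.4 CPM in WT. The other 8, Rpe65 among them, have no row among the mRPE rows analysed here. Mitochondrial rRNA took 55.3% to 59.6% of counts in WT tissue and 62.9% to 80.4% in tissue labelled Prom1-KO, where replicate 3 stood apart with the highest share. In mRPE it took 15.3% to 19.03% in WT, 11.1% to 13.3% in KO22 and 11.3% to 14.4% in KO26, so that every WT library was above every library of either line, and its part in the members' values was not tested.

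Levels of different genes were compared as CPM per kilobase of annotated exon. In WT mRPE the highest member was Ift20, an IFT-B subunit that also works at the Golgi, at 11.9 ± 2.66 CPM per kilobase (SD, n = 4). It was followed by the kinesin-2 subunit Kif3a at 7.59 ± 0.737 and Ift81, which binds tubulin, at 7.43 ± 0.642. At the low end stood Ift140 at 1.30 ± 0.240 and Ift27 at 1.18 ± 0.340 CPM per kilobase. The step from Ift20 to Kif3a was the single step of 39 between neighbours in this order at which the WT libraries did not overlap. In WT tissue the order was led by Arl3, the GTPase that releases lipid-anchored cargo in the cilium, at 3.51 ± 0.674 CPM per kilobase (SD, n = 3), then Ift20 at 2.90 ± 0.243 and Cep290 at 2.07 ± 0.819. Ift27 was again lowest, at 0.131 ± 0.0360. The median member stood at 3.06 CPM per kilobase in WT mRPE and at 0.729 in WT tissue, 2 tables that were scaled separately, so no test was made between them.

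Many ciliary genes are known targets of RFX transcription factors, which bind the X-box, a pair of facing half-sites. The sequences below show where that motif lies in the members whose promoters hold it in full, and in 4 of the members that fell in KO22. RefSeq promoter windows (table build GRCm38.p6, 250 bases before to 50 after the transcript start) were matched by symbol for 36 of the 40 members, as 38 windows; Ift80, Ift122, Ift81 and Tmem67 have none in that table. The half-site was searched as GTTGCC on both strands (GGCAAC on the other). The pair was searched as GTTNCC followed by 0 to 3 bases and GGNAAC, which reads the same on both strands and overlaps the half-site search. At least 1 half-site lay in 20 of the 38 member windows (52.6%), against 12.5% of all 32851 windows and 12.7% of the 14995 windows of genes in the mRPE table. The pair lay in 5 member windows (13.2%) against 0.804% of all windows. These 5 pairs are printed 5′ to 3′ on the gene's strand, in lower case with the pair in capitals, and each was placed on GRCm39 by exact match.
Tctn1 (chr5:122402474-122402495, minus strand, in a Tctn1 exon): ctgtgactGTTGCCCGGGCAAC
Mks1 (chr11:87744009-87744038, plus strand, overlapping a Mks1 exon): gcgtctccGTTGCCAGGGGAACgaggcacc
Ift57 (chr16:49519589-49519617, plus strand, overlapping an Ift57 exon): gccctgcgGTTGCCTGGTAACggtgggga
Tctn3 (chr19:40600795-40600823, minus strand, overlapping an Entpd1 exon on the other strand): tcccagcgGTTGCCAGGTAACgggaacca
Bbs7 (chr3:36667638-36667667, minus strand, overlapping a Bbs7 exon): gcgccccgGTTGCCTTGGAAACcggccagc

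Tctn1, Tctn3 and Mks1 fell in KO22 (below), while Ift57 and Bbs7 did not pass the test. For 4 members that fell in KO22, 1 half-site each is shown in the same way, with the half-site in capitals. Among members past both limits in KO22 (below), these are the 4 found with a half-site and no pair. The 4 printed half-sites lie in an annotated exon of the gene and begin 1 to 21 bases after its RefSeq start. Tmem231 holds another half-site, not printed, at position -104 from the start and outside any annotated exon.
Tmem231 (chr8:112660417-112660446, minus strand): tgcccgccgtcgGTTGCCgtggagactcgg
Tctn2 (chr5:124736813-124736842, plus strand): cattgattggtgGTTGCCatggctgcaggc
Bbs1 (chr19:4956637-4956666, minus strand): atggctgagctgGTTGCCaaggcgacgcct
Ift88 (chr14:57661537-57661566, plus strand): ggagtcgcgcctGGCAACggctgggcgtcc

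Of the 23 half-sites in member windows, 15 began within 50 bases of the start and 13 began at or after it. By role, the half-site was in 7 of 9 transition zone windows and in neither window of the BBS chaperonins. Among members that fell in KO22 it was in 12 of 20 windows, and among those not called in 8 of 16. A match is a description of these letters and no evidence that a factor binds there.

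**Figure D1:**
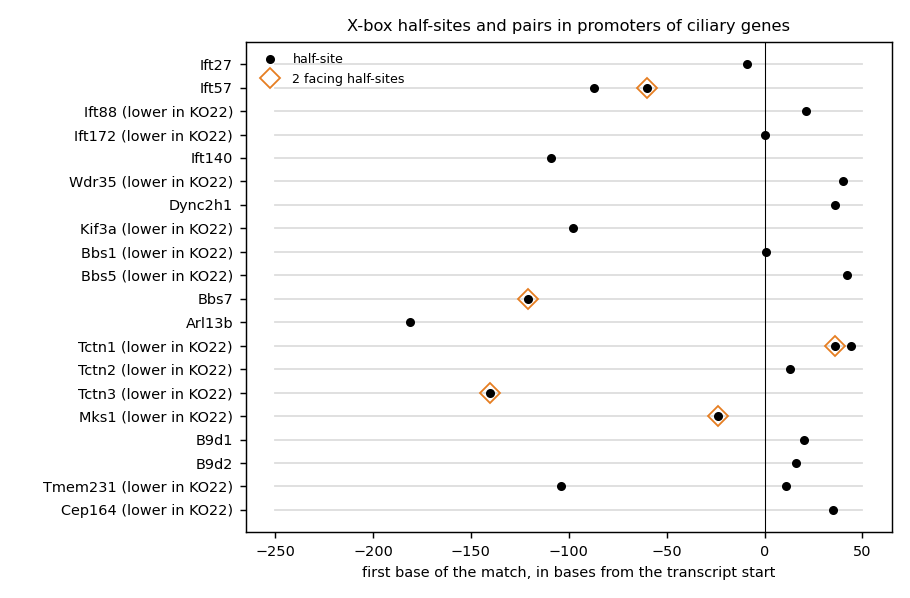
Position of X-box half-sites (dots) and pairs (diamonds) in the promoter windows of the 20 members that hold any; the horizontal axis is the first base of the match in bases from the transcript start, and members that fell in KO22 are named so. Matches lie from 181 bases before the start (Arl13b) to 44 bases after it (Tctn1), and 15 of the 23 half-sites are within 50 bases of it.

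The first comparison asked how the ciliary genes stood in KO22 against WT mRPE. A gene was called at an adjusted p under 0.05 in edgeR's quasi-likelihood test, with p adjusted over all 20455 genes tested. In KO22, 23 of the 40 members fell and 2 rose, and 15 were not called. Of all genes tested, 26.1% fell and 26.9% rose. The median log2 fold change was -0.51 over the members and -0.03 over all genes, and 35 of 40 members were negative against 51.4% of all genes. With the study's second limit, an absolute log2 fold change over 1.2, 11 members fell and none rose, against 13.8% and 11.4% of all genes. All 3 KO22 libraries were below all 4 WT libraries in 25 members, against 25.3% of all genes, and above them in 1, Bbs12, against 24.8%. Summed over the 40 members, the level was 958 to 1086 CPM in WT and 609.8 to 773.6 CPM in KO22. Since these are bulk RNA samples, fewer ciliated cells and less of each RNA per cell cannot be told apart.

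The transition zone held the largest single fall, and 6 of its 9 members fell. Tmem231, a membrane protein of the gate's MKS complex, stood at 14.5, 10.8, 14.0 and 12.3 CPM in WT replicates 1 to 4. In KO22 it stood at 2.16, 3.71 and 3.10 CPM, 23.2% of the WT mean, with no overlap (log2 fold change -2.09, 95% interval -2.59 to -1.58, edgeR adjusted p = 6.2e-05). The tectonic proteins Tctn1, Tctn2 and Tctn3, partners in the same complex, all fell. Tctn2 had 16.6, 14.3, 17.1 and 13.6 CPM in WT and 4.06, 4.34 and 3.96 CPM in KO22 (log2 fold change -1.90 ± 0.17 SE, edgeR adjusted p = 2.0e-05). The KO22 libraries lay close together here, and all were under every WT library. Tctn1 had 13.5, 16.4, 13.7 and 13.3 CPM in WT and 3.46, 8.05 and 6.67 CPM in KO22 (log2 fold change -1.23 ± 0.22). Tctn3 had 11.4, 12.5, 10.9 and 12.5 CPM in WT and 3.37, 6.65 and 5.59 CPM in KO22 (log2 fold change -1.18 ± 0.20, short of the fold limit). In both, KO22 replicate 1 was the lowest library and the groups stayed apart. Cep290, which ties the gate's microtubules to the membrane, had 55.0, 70.6, 77.2 and 61.9 CPM in WT and 17.7, 34.3 and 30.3 CPM in KO22 (log2 fold change -1.26 ± 0.14, edgeR adjusted p = 8.3e-05). Mks1 also fell (log2 fold change -1.07 ± 0.23). B9d1, B9d2 and Tmem67, of the same complex, were not called, with log2 fold changes of -0.24, -0.22 and -0.35.

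Among IFT-A subunits 4 of 5 fell. Wdr19 had 44.5, 62.8, 62.7 and 61.6 CPM in WT and 20.6, 22.2 and 22.3 CPM in KO22 (log2 fold change -1.38 ± 0.12, edgeR adjusted p = 1.6e-05), the smallest p of the 40 members. Ift122 had 15.6, 18.0, 21.2 and 18.7 CPM in WT and 4.76, 8.87 and 6.75 CPM in KO22 (log2 fold change -1.41 ± 0.17). Both are core scaffold subunits, and in both every KO22 library was under every WT library. Ift43 had 19.8, 16.5, 17.3 and 20.8 CPM in WT and 7.26, 7.23 and 8.22 CPM in KO22 (log2 fold change -1.30 ± 0.16). Wdr35 had 33.3, 35.8, 32.6 and 33.6 CPM in WT and 16.3, 13.7 and 15.4 CPM in KO22 (log2 fold change -1.17 ± 0.12). These 2 peripheral subunits were again apart from WT. Ift140 was the exception, at a log2 fold change of -0.22 with an interval of -0.54 to 0.11.

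The IFT-B subunits were mixed, with 6 of 11 lower, 1 higher and 4 not called. Ift81 had 63.6, 72.4, 78.4 and 70.1 CPM in WT and 14.2, 36.1 and 34.7 CPM in KO22 (log2 fold change -1.36 ± 0.20, edgeR adjusted p = 0.000341). Ift74, its partner in the module that binds tubulin, fell less (log2 fold change -0.59 ± 0.11). Ift88, a core subunit without which cilia do not form, had 29.2, 34.1, 31.9 and 29.6 CPM in WT and 8.04, 16.1 and 14.2 CPM in KO22 (log2 fold change -1.29 ± 0.17). Ift22, a small GTPase-like subunit, had 25.6, 22.7, 24.6 and 25.7 CPM in WT and 10.6, 12.9 and 12.3 CPM in KO22 (log2 fold change -1.05 ± 0.14). In each of Ift81, Ift88 and Ift22 the KO22 libraries were all under WT. Ift172, which links IFT-B to the turn at the tip, had 30.9, 47.2, 48.7 and 49.4 CPM in WT and 19.4, 29.6 and 22.0 CPM in KO22 (log2 fold change -0.84 ± 0.13). Ift80 fell by 0.32 on the log2 scale. Ift20, unlike these, rose, with 44.7, 29.2, 30.6 and 29.4 CPM in WT and 44.4, 40.01 and 47.2 CPM in KO22 (log2 fold change 0.38 ± 0.14, edgeR adjusted p = 0.038). WT replicate 1 lay within the range of KO22, the groups overlapped, and without KO22 replicate 3 the value was 0.21 (edgeR adjusted p = 0.261). Ift27, Ift46, Ift52 and Ift57 ranged from -0.14 to 0.23 and were not called.

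Of the 3 motor subunits 1 fell. Kif3a fell by 0.57 on the log2 scale (± 0.12 SE, edgeR adjusted p = 0.00259), while its partner Kif3b stood at 0.01 (interval -0.30 to 0.31). Dync2h1, the dynein-2 heavy chain, stood at -0.19 (interval -0.43 to 0.05). Of 6 BBSome subunits 4 fell. Bbs1, the subunit that meets the recruiting GTPase Arl6, had 9.85, 14.9, 12.8 and 11.1 CPM in WT and 3.55, 3.57 and 2.10 CPM in KO22 (log2 fold change -1.96 ± 0.25, edgeR adjusted p = 0.000165). That is 25.2% of the WT mean, with no overlap. Bbs4, Bbs5 and Bbs2 fell by 1.01, 0.52 and 0.49 on the log2 scale. Bbs9 stood at -0.19 and was not called. Bbs7 had 17.5, 16.1, 17.6 and 18.7 CPM in WT and 4.93, 21.6 and 17.2 CPM in KO22. Only KO22 replicate 1 was low, and the log2 fold change of -0.35 became 0.17 without it, neither passing the test.

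The 2 BBS chaperonins, which fold and assemble the BBSome, moved in opposite directions. Bbs10 had 12.2, 12.8, 14.4 and 15.9 CPM in WT and 2.16, 9.59 and 6.29 CPM in KO22 (log2 fold change -1.24 ± 0.30, edgeR adjusted p = 0.00679). Its size rested on KO22 replicate 1, since without that library it was -0.81 (edgeR adjusted p = 0.000223). Bbs12 had 12.1, 15.97, 15.5 and 17.1 CPM in WT and 17.4, 38.7 and 36.2 CPM in KO22 (log2 fold change 1.01 ± 0.15, edgeR adjusted p = 0.000464). Here replicate 1 of both groups was the lowest library, and every KO22 library was above every WT library. The cilium GTPases were not called. Arl3 stood at -0.33 and Arl6 at -0.37 with all KO22 libraries below WT, and Arl13b, with 12.5, 17.3, 16.5 and 15.4 CPM in WT and 17.6, 15.8 and 21.1 CPM in KO22, at 0.26. Cep164, the distal appendage protein that docks the centriole, fell by 0.41 (edgeR adjusted p = 0.0301), with overlapping groups.

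KO22 replicate 1, the 8995 library of this line, was the lowest of the 3 KO22 libraries in 25 of 40 members, and in 18 of the 23 that fell. Within the 8995 libraries (1 against 1, no test) 36 members were lower in KO22 (median -0.62 on the log2 scale). Within the 9262 libraries (2 against 3) 33 members were lower, with a median of -0.51, and 27 members were called lower there. The counts in this paragraph were not made over all genes, so they are not known to be particular to the members. The calls of Ift20, Ift80, Bbs5 and Cep164 were lost when 1 library or another was left out, and those of Arl3, Bbs9, Dync2h1 and Tmem67 were gained.

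**Figure D2:**
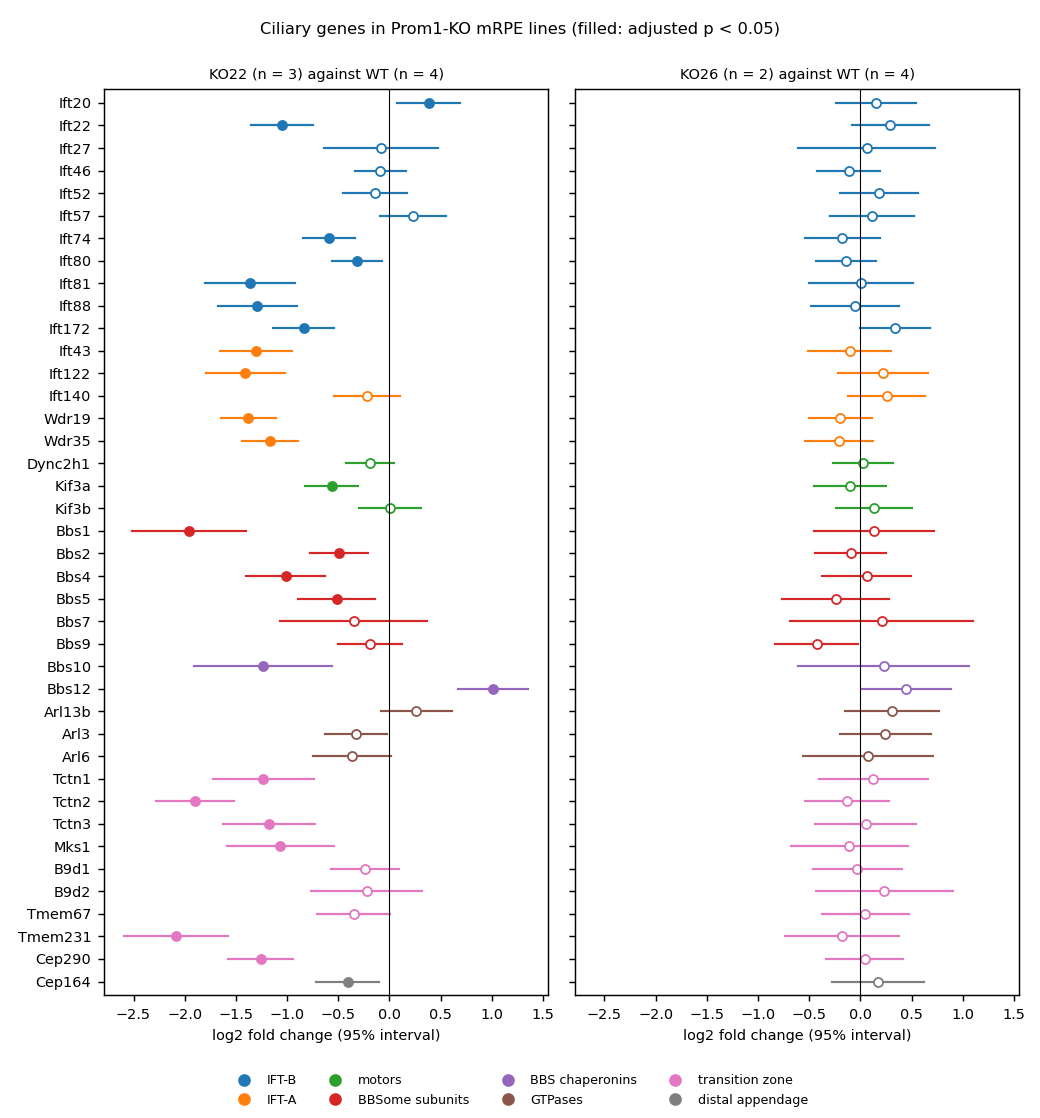
Log2 fold change with 95% interval of the 40 members, by role, in KO22 against WT (left) and KO26 against WT (right), which share the WT libraries; filled points have an adjusted p under 0.05. On the left 23 filled points lie below 0 and 2 above, and on the right none is filled.

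**Figure D3:**
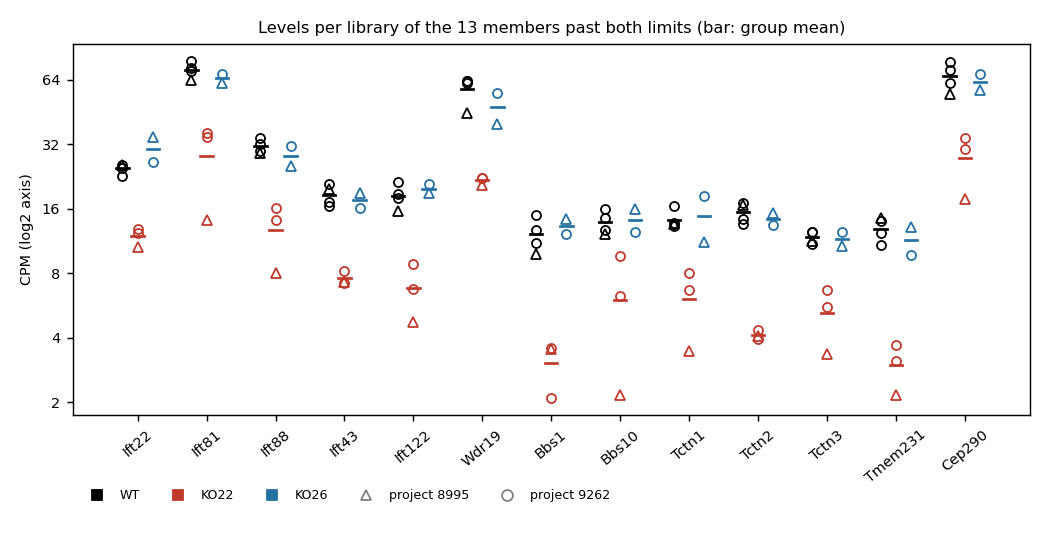
CPM in each mRPE library on a log2 axis for the 13 members past both limits in KO22 against WT or against KO26; bars are group means, triangles are 8995 libraries and circles 9262 libraries. In each gene the KO22 points lie under all WT and KO26 points, and in Bbs10 the triangle of KO22 is at 2.16 CPM against 6.29 and 9.59 CPM for its circles.

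In KO22 against WT the median log2 fold change of a chromosome's genes ran from -0.54 on chromosome 10 to 0.60 on chromosome 8. Positions within a chromosome were not examined, so shifts of a whole chromosome and of a part cannot be told apart. Each member was also set beside the median of its own chromosome. Relative to it 34 of 40 members were lower, with a median difference of -0.66. Tmem231, on chromosome 8 with its raised median, was 2.69 below that median on the log2 scale. Bbs2, on the same chromosome, was 1.09 below it. Bbs1 on chromosome 19 was 1.54 below, Tctn2 on chromosome 5 was 1.79 below and Ift88 on chromosome 14 was 1.49 below. Cep290 and Bbs10, both on chromosome 10, fell by 1.26 and 1.24, of which 0.72 and 0.69 lay below the chromosome's median. For Ift43 and Wdr35 on chromosome 12 the differences were -0.80 and -0.66. Arl3, on chromosome 19, was level with its chromosome (0.09 above).

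**Figure D4:**
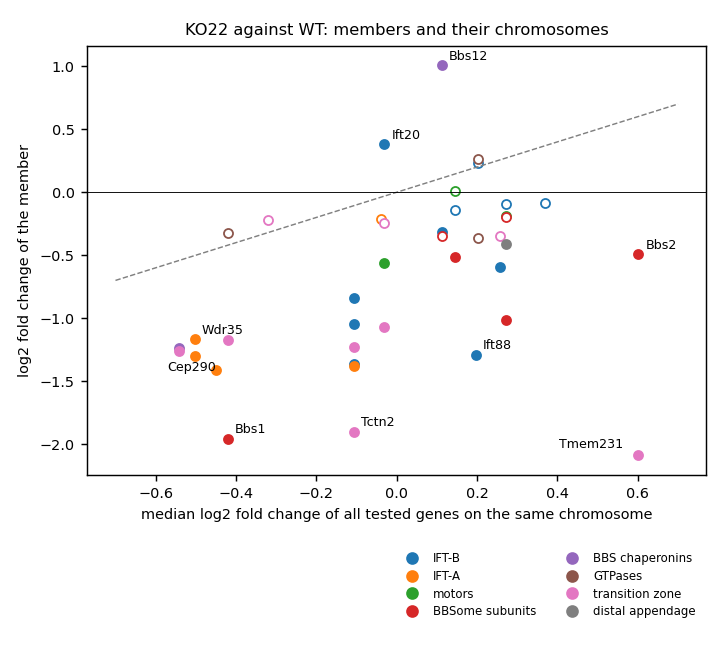
Log2 fold change of each member in KO22 against WT (vertical axis) against the median log2 fold change of all tested genes on its chromosome (horizontal axis); the dashed line marks equality, colours give roles and filled points were called. Of the 40 members 34 lie below the line, Tmem231 farthest, at -2.09 on a chromosome with a median of 0.60.

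The second line gave another picture. Its 2 libraries are the ones that the paper removed as outliers after batch correction. The paper proposes biological heterogeneity or technical anomalies behind them. In KO26 against WT none of the 40 members was called in either direction by edgeR or by DESeq2, and 2 had an unadjusted p under 0.05, against 20.1% of all genes. Of all 20737 genes tested, 2.36% rose and 1.13% fell (1.21% and 0.719% with the fold limit). Members' log2 fold changes ran from -0.43 to 0.45 with a median of 0.06, and 15 of 40 were negative, against 48% of all genes. Bbs9 stood at 11.2 and 16.9 CPM in KO26 and at 15.7, 21.5, 21.6 and 19.7 CPM in WT, overlapping (log2 fold change -0.43, edgeR adjusted p = 0.228). Bbs12 stood at 16.3 and 20.7 CPM in KO26 (log2 fold change 0.45, edgeR adjusted p = 0.231). Ift22, at 34.4 and 26.5 CPM, was the member with both KO26 libraries above every WT library, and Wdr35, at 27.2 and 31.3 CPM, the one with both below, against 11.9% and 12.8% of all genes. Neither passed the test. Ift172 had 43.9 and 57.2 CPM (log2 fold change 0.34, interval -0.004 to 0.68) and Wdr19 39.9 and 55.4 CPM (-0.20, interval -0.51 to 0.11). For the members that fell most in KO22 the intervals in KO26 were -0.74 to 0.38 for Tmem231, -0.45 to 0.72 for Bbs1 and -0.54 to 0.28 for Tctn2.

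Tested directly in 1 fit over the 9 mRPE libraries, 17 members were lower in KO22 than in KO26 and none was higher, against 18.1% and 16.3% of all genes. Bbs12 was called higher by DESeq2 and had an unadjusted p of 0.0216 in edgeR. With the fold limit 11 were lower and none higher, against 10.7% and 7.56% of all genes. All KO22 libraries were below both KO26 libraries in 23 members and above them in none, against 24.6% and 23.4%. Tmem231 had 13.2 and 9.71 CPM in KO26 and differed from KO22 by -1.90 ± 0.28 on the log2 scale (edgeR adjusted p = 0.000545). Bbs1 had 14.3 and 12.1 CPM in KO26 (difference -2.11 ± 0.28) and Tctn2 15.2 and 13.4 CPM (-1.77 ± 0.20). In all 3 the KO26 libraries lay within the range of WT or just under it, and above KO22. Cep290 had 57.0 and 67.8 CPM in KO26, Ift81 61.3 and 68.2, Ift88 25.3 and 31.2, and Ift122 18.9 and 20.8, with differences of -1.30, -1.36, -1.24 and -1.63. Ift22 differed by -1.34, Tctn1 (11.2 and 18.3 CPM in KO26) by -1.37 and Tctn3 (10.7 and 12.5 CPM) by -1.23. Wdr19 and Ift43 (18.9 and 16.2 CPM in KO26) differed by -1.17 and -1.20, inside the fold limit. Bbs10 had 15.96 and 12.5 CPM in KO26 and differed by -1.43 ± 0.41 (edgeR adjusted p = 0.0212). Without KO22 replicate 1 this was -0.84, and without KO26 replicate 1 it was -0.87 (edgeR adjusted p = 0.171). That last fit keeps 1 KO26 library, which is assumed to vary like the libraries of the other groups. By role the lower members were 6 of 9 in the transition zone, 4 of 5 in IFT-A, 4 of 11 in IFT-B, 2 of 6 in the BBSome and 1 of 2 chaperonins. Ift20, with 51.2 and 30.2 CPM in KO26, Bbs9 and Bbs12 were the most raised in KO22 against KO26, at 0.23, 0.25 and 0.56, and were not called.

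Other genes of the same pathways, a list of 54 tested in mRPE, were counted beside the members. In KO22, 24 fell, 3 rose and 27 were not called, beside 26.1% and 26.9% of all genes, and the median log2 fold change was -0.43. The largest share was among the other BBS genes, where 4 of 5 fell, led by the BBSome subunit Ttc8 (log2 fold change -1.59 ± 0.13, edgeR adjusted p = 1.5e-05). Of the other IFT and motor genes 8 of 14 fell, and of the other transition zone genes 10 of 19, with the smallest p in Cc2d2a (-1.28 ± 0.12). Rpgrip1, which anchors a gate protein in photoreceptors, rose (1.26 ± 0.20), as did the chaperonin Mkks (0.59 ± 0.17). Of 10 appendage and initiation genes 1, Cep83, fell. Of 6 genes of lipid-anchored cargo 1 fell, Cys1, whose log2 fold change of -3.33 ± 0.59 was the largest fall of these 54 genes. In KO22 replicates 2 and 3, 1 of these 6 genes held 3 counts or fewer, and in the WT libraries none did. The size of a fall to such counts is poorly determined. Cep83 and Cys1 were named after their values were seen. In KO26 none of the 54 was called by edgeR, and 4 had an unadjusted p under 0.05, against 20.1% of all genes. The smallest p were those of Cspp1 (-0.44) and Lztfl1 (-0.55) below WT and of Fbf1 (0.36) and Tmem17 (0.94) above it, with edgeR adjusted p of 0.111, 0.114, 0.211 and 0.25. KO22 was lower than KO26 in 22 and higher in 1 of them, beside 18.1% and 16.3% of all genes.

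Of the X-box factors, 5 RFX genes were tested. In KO22 Rfx3 and Rfx2 fell by 0.84 and 0.92 on the log2 scale (edgeR adjusted p = 0.00274 and 0.0237). Rfx7 and Rfx1 rose by 0.90 and 0.45, and Rfx5 was not called. The summed level of the 5 was 205.3 to 214.8 CPM in WT, 233.6 to 357 CPM in KO22 and 213.9 to 230.4 CPM in KO26. The part of these factors in the members' values was not tested. Of all genes, 26.1% fell and 26.9% rose in KO22. In KO26 no RFX gene was called by edgeR, and none had an unadjusted p under 0.05, against 20.1% of all genes. The RFX genes were named after their values were seen. Of 7 motile cilium genes 2, Ccdc39 and Rsph4a, fell in KO22, against 26.1% of all genes. In KO26 none of the 7 was called and 1 had an unadjusted p under 0.05, against 20.1% of all genes.

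Cells take their cilium down before they divide, so genes of cilium disassembly and the cell cycle were read as a neighbouring list. All 13 rose in KO22 (median log2 fold change 1.72), against 26.9% of all genes. In KO26 8 of 13 rose, with a median of 1.21, against 2.36% of all genes. The summed level of the 13 was 859.2 to 1065 CPM in WT, 1821 to 2107 CPM in KO26 and 2300 to 3583 CPM in KO22. Its part in the result was not tested. Of the fibroblast and pericyte markers 4 of 5 fell in KO22 (summed level 6142 to 7259 CPM in WT, 2687 to 4097 CPM in KO22, and 7599 to 9639 CPM in KO26), and the part of that shift was not tested either. Of 5 choroidal endothelium markers 2 fell in KO22 (Kdr and Tek) and 2 rose (Flt1 and Plvap), and their summed level was 216.4 to 268.9 CPM in WT, 80.8 to 95.7 CPM in KO22 and 115.4 to 122 CPM in KO26. The part of these markers was not tested. RPE markers, 4 read, summed to 17.3 to 39.95 CPM in KO22, with 1 higher and 1 lower. These marker counts stand beside 26.1% of all genes lower and 26.9% higher in KO22.

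In RPE/choroid none of the 40 members was called between the libraries labelled Prom1-KO and WT, by edgeR or DESeq2, and 2 had an unadjusted p under 0.05, against 8.3% of all genes. Of all 24926 genes tested, 0% rose and 0.193% fell (0.189% with the fold limit). Log2 fold changes ran from -0.16 to 0.83 with a median of 0.11, against 0.01 over all genes, and 12 of 40 were negative, against 48.2% of all genes. The largest value was that of Wdr35, an IFT-A subunit, with 12.1, 7.41 and 9.31 CPM in WT and 22.1, 15.8 and 13.3 CPM in the libraries labelled Prom1-KO. The 2 groups did not overlap, but the difference did not pass the test (log2 fold change 0.83, interval 0.26 to 1.41, edgeR adjusted p = 0.384). The groups were apart in that direction in these 2 members, Wdr35 and Ift57, against 6.71% of all genes, and in the other direction in no member, against 7.89%. Ift57 had 6.89, 4.28 and 6.59 CPM in WT and 10.2, 7.02 and 8.89 CPM in the other group, also apart and also not called (0.56, interval 0.02 to 1.09). Ift74 had 6.20, 5.06 and 8.12 CPM in WT and 8.29, 7.22 and 8.82 CPM in the other group, overlapping (0.33). At the other end Tctn1 had 7.77, 9.59 and 7.88 CPM in WT and 6.91, 7.92 and 7.70 CPM in the other group (-0.16, interval -0.50 to 0.17). Ift172 (11.4, 12.02 and 12.9 CPM against 12.6, 11.97 and 9.22 CPM) and Bbs2 (3.96, 3.35 and 5.33 CPM against 4.81, 4.13 and 2.69 CPM) stood at -0.10 and -0.11, with overlapping groups.

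For the members that fell most in KO22 the tissue intervals were -0.59 to 0.83 for Tmem231, -0.62 to 0.65 for Tctn2, -0.94 to 0.89 for Bbs1 and -0.53 to 0.78 for Cep290. Among 55 other ciliary genes none was called in tissue by edgeR either, and 1 had an unadjusted p under 0.05, against 8.3% of all genes. The summed level of 12 photoreceptor markers was 92.2, 42.5 and 1212 CPM in WT and 590.8, 153.5 and 22.1 CPM in the libraries labelled Prom1-KO. WT replicate 3, the highest of these, was the highest library in 15 of the 40 members and replicate 1 labelled Prom1-KO, the next, in 14. Replicate 3 labelled Prom1-KO, the lowest of these, was the highest in 5. WT replicates 1, 2 and 3 were the lowest library in 10, 15 and 0 members. Replicates 1, 2 and 3 labelled Prom1-KO were the lowest in 2, 2 and 11. The same counts over all genes were not made. Bbs7 had 3.90, 2.42 and 10.8 CPM in WT and 9.14, 5.97 and 4.68 CPM in the other group. Cep290 had 19.6, 17.8 and 35.2 CPM in WT and 27.1, 21.6 and 30.6 CPM in the other group. There replicate 3 labelled Prom1-KO was above replicate 1, the reverse of their photoreceptor sums. In the tissue labelled Prom1-KO 3 of 12 RPE markers fell, against 0.193% of all genes. Rpe65 itself had 1.13, 5.97 and 4.48 CPM there against 203.8 to 287.2 CPM in WT. The summed level of the 12 was 1264 to 1421 CPM there and 2102 to 2851 CPM in WT. Of 6 choroidal endothelium markers none was called, and 5 had an unadjusted p under 0.05, against 8.3% of all genes. Their summed level was 95.8 to 184.8 CPM in WT and 55.3 to 89.7 CPM in the other group. The part of photoreceptor RNA, RPE and endothelium markers and mitochondrial rRNA in the members' values was not tested. With mitochondrial genes left out none of the 40 was called.

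**Figure D5:**
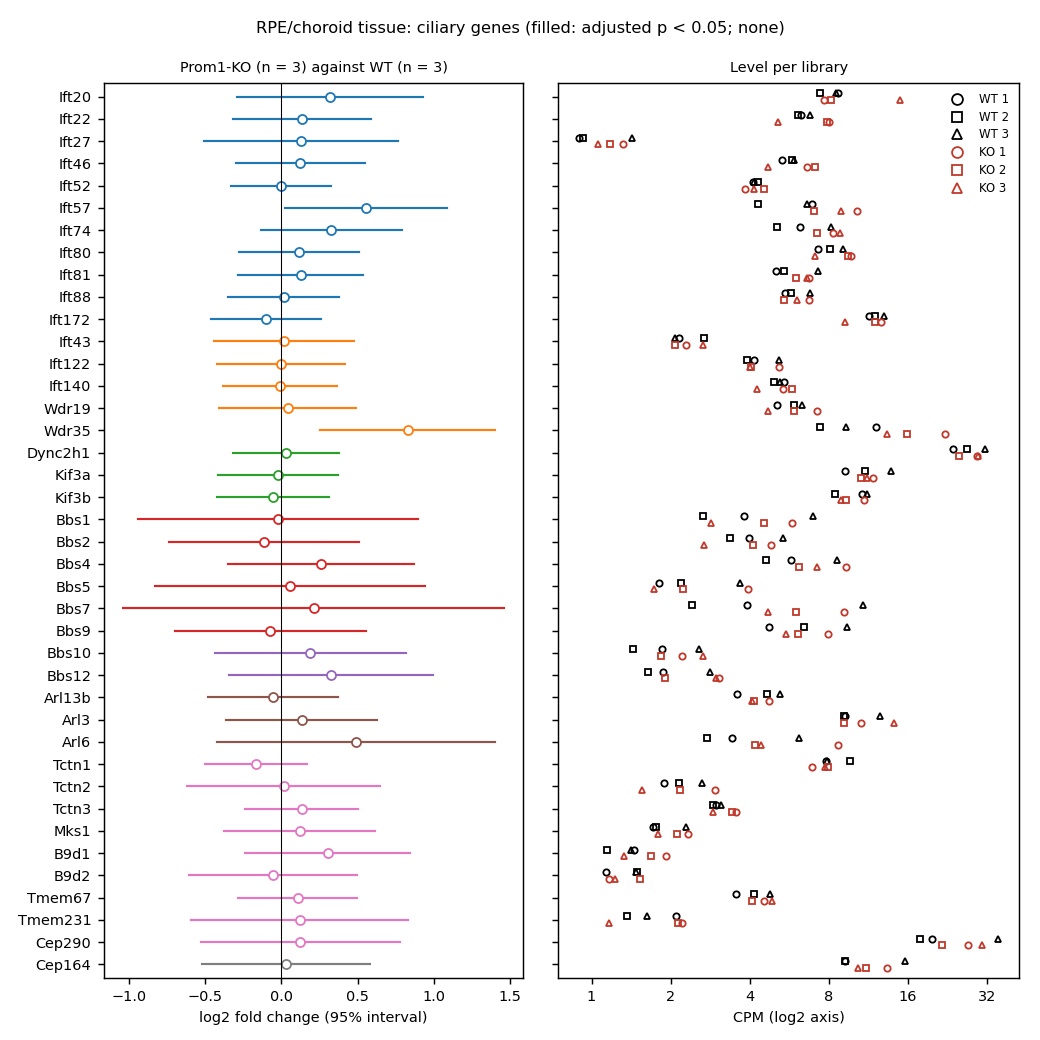
RPE/choroid tissue: log2 fold change with 95% interval of the 40 members in the libraries labelled Prom1-KO against WT (left), and CPM in each library on a log2 axis (right; black WT, red labelled Prom1-KO, one symbol per replicate). No point is filled, since none passed the test, and Wdr35 and Ift57 are the 2 whose intervals lie above 0.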

How the data were processed

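Polyadenylated RNA of 15 libraries was read from 2 tables of raw counts per gene. Per the labels and the methods, the authors trimmed reads with Trim Galore 0.6.7, aligned them to mm39 with STAR, whose gene counts they deposited, and removed genes of low counts. The strand setting is not given in the sources used here, and 22 of the 40 members share exon bases with a gene on the other strand. The shared part was largest in Tctn1 (35.2% of exon bases), Ift20 (21.7%) and Cep290 (20.6%), all called in KO22. The part of reads from those other genes was not tested. The deposited normalized tables were not used. The members, the lists and the rule for named genes were chosen with earlier results of these data known. Libraries were grouped by their labels. Nothing says that replicates were separate cultures or animals, so p-values measure the spread between these libraries, which exceeded sampling noise in every pair (chi-square per degree of freedom at least 4.8). Genes that reached 5 counts in 3 or more libraries entered edgeR's quasi-likelihood test (edgeR 4.0.16, R 4.3.3, TMM scale, Benjamini-Hochberg adjustment over all genes), with the library-name number 8995 or 9262 as a term in mRPE. KO22 was compared with WT over 7 libraries, and KO26 with WT and KO22 with KO26 in a fit over 9. Values per library are printed for members past both limits in any comparison and for the 3 smallest p in each direction. Gene annotation and exon lengths are from GENCODE M39 on GRCm39. Alternatives were DESeq2 1.42.0 (its test and its size factors), other count filters, no library-name term, other library sets, each library left out and, chosen after seeing the data, mitochondrial genes left out in tissue. The code was tested on simulated data.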

Additional observations from a re-analysis of the deposited data

Results flagged for a closer look

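Among the 4 WT mRPE libraries, 1 stood apart from the other 3 by more than Dixon's 95% limit in 9 of the 40 members. The limit is set so that chance flags about 1 in 20 independent groups. The members share the same 4 libraries, so that rate is no yardstick for their count. The share of all genes past the limit was not computed. In 7 of the 9 members the library apart was replicate 1, the only 8995 library of WT. Ift20 stood at 44.7 CPM there against 29.2 to 30.6 CPM in the others, Ift27 at 13.9 against 7.89 to 8.71 and Arl6 at 9.38 against 7.34 to 7.66. Below the others were Ift172 at 30.9 against 47.2 to 49.4 CPM, Wdr19 at 44.5 against 61.6 to 62.8, Mks1 at 4.29 against 6.1 to 6.46 and Cep164 at 12.3 against 16 to 16.7. In replicate 2 Ift80 stood at 63.4 against 52.8 to 54.1 CPM and Tctn1 at 16.5 against 13.3 to 13.6 CPM.

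KO22 and KO26, both Prom1-KO, differed from each other past both limits in 11 members by the direct contrast, all lower in KO22. The log2 differences were -1.344 for Ift22, -1.357 for Ift81, -1.239 for Ift88 and -1.63 for Ift122. They were -2.105 for Bbs1, -1.432 for Bbs10, -1.366 for Tctn1, -1.77 for Tctn2 and -1.226 for Tctn3, and -1.903 for Tmem231 and -1.302 for Cep290. The edgeR adjusted p ran from 0.000109 for Tctn2 to 0.0212 for Bbs10. KO26 has 2 libraries, both removed by the paper as outliers.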

How the results depend on the processing

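The members that fell in KO22 against WT, 23 as reported, were 11 with the fold limit, 20 to 27 when 1 library was left out and 21 to 27 under the other alternatives. The 2 that rose were 0 with the fold limit, 1 with filterByExpr, with no library-name term or in 1 fit over all 9 libraries, and 1 to 2 when 1 library was left out. KO26 against WT, with none called, gave 1 higher member (Arl13b) over the 9262 libraries alone, where a single KO26 library is assumed to vary like the other groups, and 0 to 0 when 1 library was left out. For KO22 against KO26 the 17 lower members were 11 with the fold limit and 16 to 20 when 1 library was left out, and the count of higher members was 1 with DESeq2's size factors or its own test (Bbs12) and 0 to 2 when 1 library was left out (2 without KO22 replicate 1). In tissue the count was 0 in both directions with the fold limit, both uses of DESeq2, either count filter, mitochondrial genes left out and each library left out. No called member reversed its direction under these alternatives. DESeq2's size factors moved no median of all genes by more than 0.02. The cause of these shifts was not tested. No paired analysis was possible because the library numbers do not tie libraries of different groups together. Single derived lines, 2 KO26 libraries that the paper removed as outliers, and bulk RNA limit the comparisons. So do tissue libraries of unequal photoreceptor, RPE and endothelium marker levels.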
